A study of Mus musculus with 6 samples.

Results

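Interferon-stimulated genes are the transcripts that cells make in response to interferons, and 38 of them were followed here in mouse bone marrow-derived mast cells. The members were set by name, and each was read from the array row whose platform annotation gives that 1 gene symbol alone. Of the 38, 35 had such a row, among 30102 genes so measured. Ifi44, Gbp5 and Ifi47 had none and are not analysed here. No member had more than 1 row, so no choice between rows was needed. All 35 entered the test, and 27 had a mean over the 6 arrays above a background log2 level of 6.03, which was set from chemosensory receptor genes.

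Interferons bind receptors that activate the kinases JAK1, TYK2 and JAK2, and these phosphorylate STAT transcription factors. Complexes of these factors then bind the interferon-stimulated response element or the gamma-activated sequence in the promoters of target genes. Many of the targets sense viral RNA, block virus entry or replication, or attach the ubiquitin-like protein ISG15 to other proteins. Some of them can also be switched on directly by IRF3 or by other factors when a cell senses danger, without interferon.

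The cells were C57BL/6J marrow cultured for 6 weeks with interleukin 3 and a supernatant containing stem cell factor, which matures it into mast cells. One group of 3 samples received ionomycin, a calcium ionophore, at 1 µg/mL for 1 h in Tyrode's buffer. The naive group of 3 samples received the same buffer without ionomycin. Both groups were then washed and kept in culture medium for 3 h, so that the RNA of the activated group was taken 4 h after activation began. The labels do not say that the 3 samples of a group came from separate cultures or animals, so the spread behind each p-value may be technical. The comparison asks which transcripts differ some hours after activation.

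Values are log2 signals of whole-transcript Affymetrix arrays, whose precision is limited by there being 3 per group. The 12 mast cell markers all lay above background, with a mean log2 signal between 11.94 and 12.04 on the naive arrays and between 11.87 and 11.92 on the ionomycin arrays. By limma 0 of them passed. Before adjustment (p under 0.05) limma had 10.2% of all genes higher and 5.44% lower, and of the markers 1 and 4. Among these, Hdc, the histamine-forming enzyme, differed by 1.04, Kit, the stem cell factor receptor, by -0.39, Ms4a2, a chain of the IgE receptor, by -0.62, and the receptor gene Mrgprb2 by -0.88. Without both replicate 1 arrays described next, Hdc passed as higher (limma adjusted p = 0.0119) and Ms4a2 as lower (0.0231). Replicate 1 of both groups stood apart from the other arrays, at -48.0 (naive) and -21.2 (ionomycin) on a first principal component where the other 4 arrays lay between 13.0 and 21.9. Where leaving these arrays out changed a call among the genes described, that value is given too.

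Most, but not all, of the member promoters searched held the core letters of the interferon-stimulated response element. Promoter windows of RefSeq (build GRCm38.p6, 250 bases before to 50 bases after a transcript start) were found for 29 of the 38 members, and were searched on both strands. The core of the interferon-stimulated response element, searched as GAAA, any 2 bases, and GAAA again, occurred in 17 of these 29 members (58.6%) and in 3.99% of the 27025 genes with a window. Overlapping matches were allowed. The gamma-activated sequence, searched as TTCNNNGAA, occurred in 8 of the 29 (27.6%) and in 9.55% of all genes. These matches are descriptions of letters in a window, and none was measured as a binding site here.

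The 160 bases before the start are shown for 6 members that hold the core there and that had a large difference or the highest array signal in their role group. They show the element in front of genes whose differences were large, small and negative. Capitals mark every match of the core, which reads TTTC, any 2 bases, TTTC where it lies on the opposite strand. The stretches are chr12:26456453-26456612 on the minus strand, chr19:34640729-34640888 on the plus strand, chr7:140955962-140956121 on the minus strand, and chr3:142559884-142560043, chr3:142620503-142620662 and chr3:142530176-142530335 on the plus strand, each written in the direction of its gene.
Rsad2: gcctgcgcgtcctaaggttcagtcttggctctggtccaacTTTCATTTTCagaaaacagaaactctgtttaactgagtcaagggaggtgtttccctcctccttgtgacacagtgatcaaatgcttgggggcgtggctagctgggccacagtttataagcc
Ifit1: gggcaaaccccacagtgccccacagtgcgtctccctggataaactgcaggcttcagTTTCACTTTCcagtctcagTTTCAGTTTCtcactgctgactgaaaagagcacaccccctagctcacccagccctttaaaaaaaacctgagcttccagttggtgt
Ifitm2: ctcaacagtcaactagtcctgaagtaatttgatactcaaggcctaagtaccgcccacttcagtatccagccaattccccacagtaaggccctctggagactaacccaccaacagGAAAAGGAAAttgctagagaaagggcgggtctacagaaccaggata
Gbp3: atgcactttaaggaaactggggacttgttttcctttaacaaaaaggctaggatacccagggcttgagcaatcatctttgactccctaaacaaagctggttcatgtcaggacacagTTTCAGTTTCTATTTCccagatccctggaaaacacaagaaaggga
Gbp2: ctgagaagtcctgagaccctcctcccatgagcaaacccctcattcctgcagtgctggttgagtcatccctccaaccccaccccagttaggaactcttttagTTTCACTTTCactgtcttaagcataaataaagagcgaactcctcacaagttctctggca
Gbp7: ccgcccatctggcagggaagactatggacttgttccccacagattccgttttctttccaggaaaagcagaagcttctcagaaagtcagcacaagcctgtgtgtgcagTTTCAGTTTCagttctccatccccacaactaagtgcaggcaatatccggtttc

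Ifit1 held 2 separate matches, and Gbp3 held 2 that overlap. The window of the other annotated Gbp3 start held none. Every match of the core lay after the start in Ifih1, Ddx58, Eif2ak2 and Ifitm3. Oasl1, Oasl2, Trim25, Xaf1, Ifi35, Ifi44, Ifi47, Cmpk2, Dtx3l, Ifit2, Ifitm1 and Samd9l had no match of the core in their windows. The 16 measured members with a core match had a median log2 difference of 0.10, with a range from -0.36 to 1.62, and the 10 without one had a median of 0.12, with a range from -0.19 to 1.01.

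**Figure D1:**
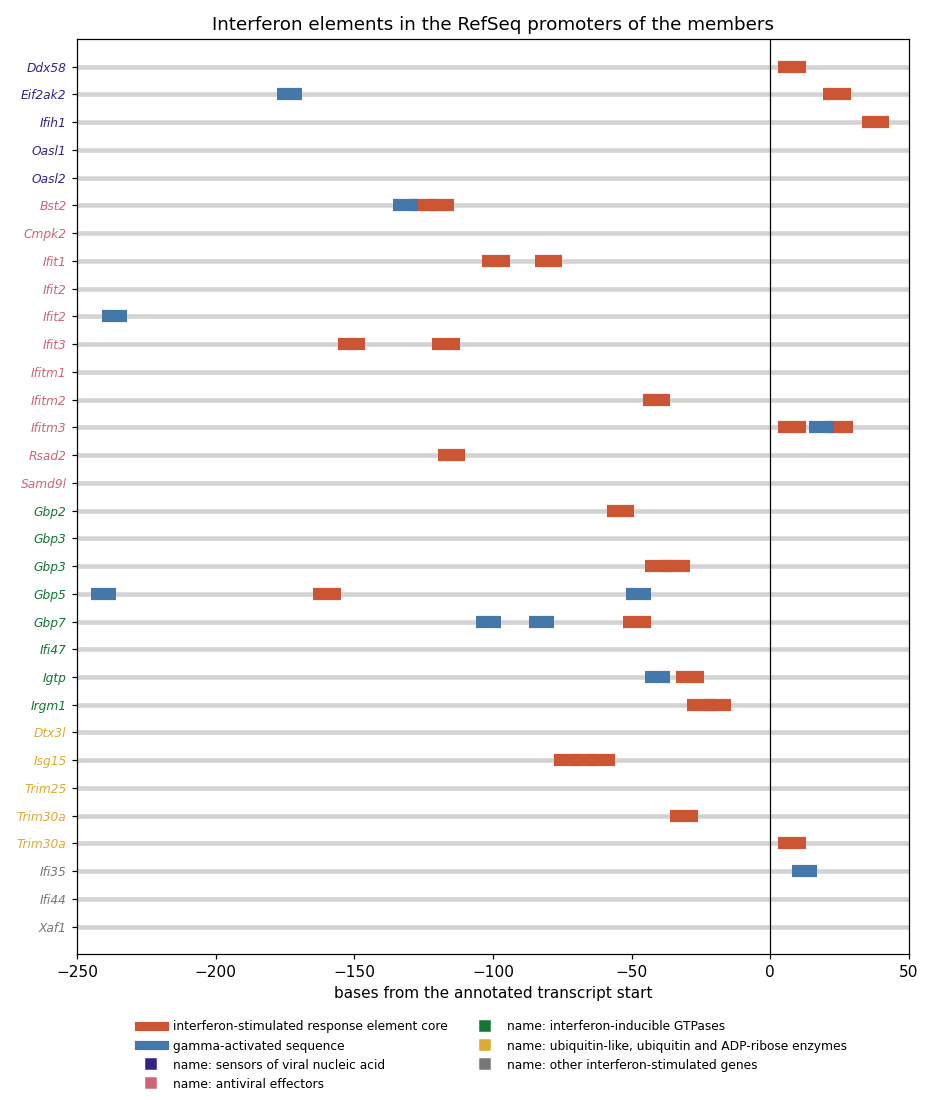
Matches of the response element core (orange) and of the gamma-activated sequence (blue) in the promoter windows of 29 members, plotted as bases from the annotated transcript start, with 1 line per window and names coloured by role. The response element cores lie between -165 and 42 bases from the start, and 12 members have none.

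At 4 h after ionomycin, 1 of the 35 measured members rose and 0 fell. The gene that rose was Gbp3, a guanylate-binding protein. Across all genes limma called 0.289% higher and 0.0598% lower (adjusted p under 0.05), 87 and 18 genes, which became 86 and 110 with each array centred on its median. Larger mean differences were seen for Rsad2, Ifit1 and Oasl1, each at least 2-fold, and for Ifih1 just under 2-fold, but their replicates spread more and they did not pass. Of the 35 members, 25 had a positive difference (71.4%) and 10 a negative one, and 64.6% of all genes were positive, so the count is near the general share. With arrays centred on their medians 20 members were positive (57.1%, against 36.2% of all genes), and 24 after quantile normalization (68.6%, against 51.6%). The median member differed by 0.14 on the log2 scale, against 0.05 for all 30102 genes. Centring each array on its median brought these to 0.04 and -0.04, and quantile normalization to 0.11 and 0.004. Of the 27 members above background 17 were positive (63.0%, against 58.9% of all genes above background). Their median was 0.07, against 0.05 for those genes, and -0.03 against -0.05 after centring. All 8 members not above background were positive, with a median of 0.22. Of all genes not above background 74.5% were positive, with a median of 0.06.

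The arrays of the groups did not overlap for 11 members, all of them higher after ionomycin, which is 31.4% of the 35 against 18.9% of all genes. None was lower without overlap, against 7.31% of all genes. Before adjustment (limma p under 0.05) 10 members were higher and 0 lower, against 10.2% and 5.44% of all genes, and with the replicate number as a block 13 were higher and 4 lower, against 16.0% and 9.41%. At all 3 replicate numbers 15 members were higher and 8 lower, against 35.8% and 16.8% of all genes. These counts describe the list and test nothing about it. With that block 0 members passed (limma called 0.395% of all genes higher and 0.110% lower). The median difference of the members was -0.01 at replicate 1, 0.31 at replicate 2 and 0.19 at replicate 3.

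**Figure D2:**
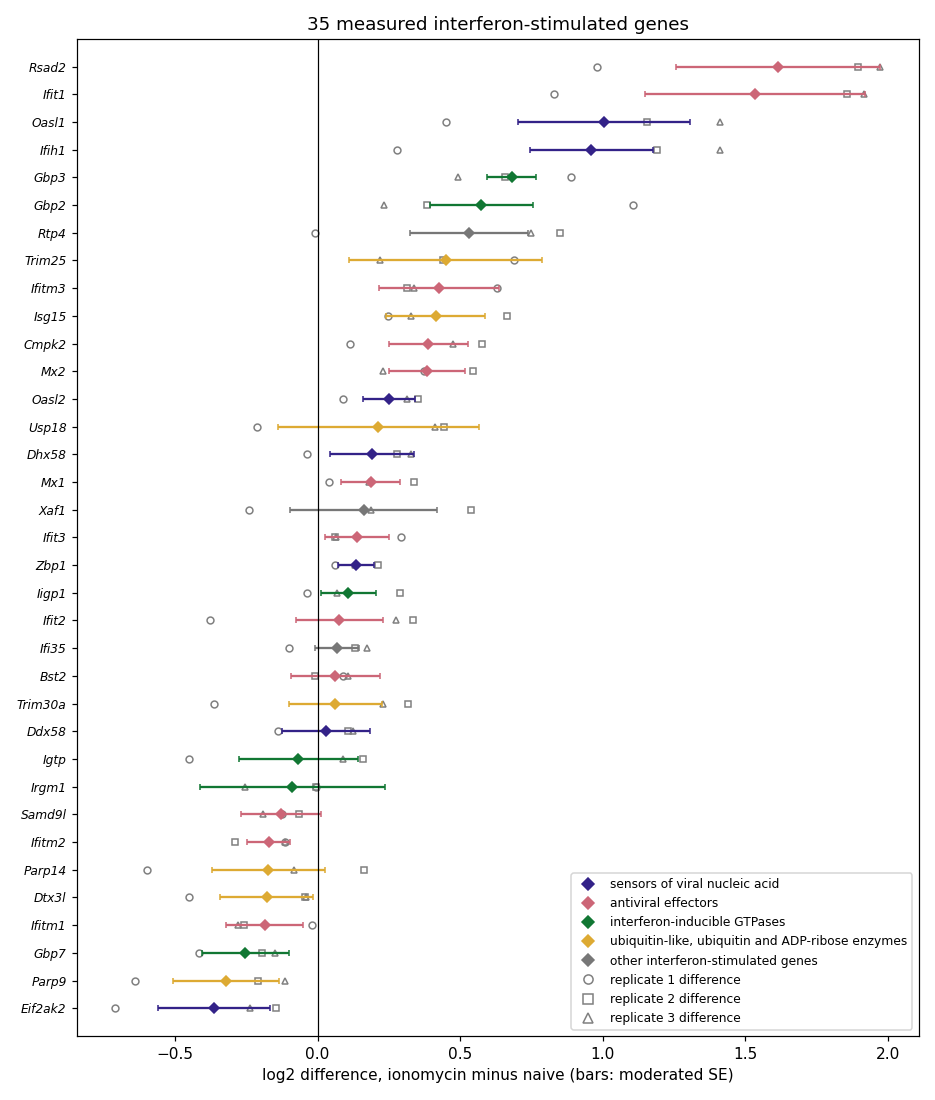
Log2 difference (ionomycin minus naive) of the 35 measured members, with moderated standard errors as bars, colours for the role and open symbols for the difference at each replicate number. Rsad2 and Ifit1 lie at the top with 1.62 and 1.53, and most members lie within 0.5 of no difference.

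Among the antiviral effectors, 0 of 12 measured genes passed the test by limma. Before adjustment, 4 were higher (33.3%, against 10.2% of all genes) and 0 lower (against 5.44%). Rsad2 encodes viperin, an enzyme that makes a nucleotide which stops viral RNA synthesis. Its log2 signals were 6.65, 7.11 and 6.44 on naive arrays 1, 2 and 3, and 7.63, 9.002 and 8.41 on the ionomycin arrays. All 3 ionomycin arrays were above all naive arrays, and replicate 1 was the lowest of the ionomycin group. Rsad2 was thus 3.07-fold higher on average (log2 1.62 ± 0.36 SE), without passing (limma adjusted p = 0.155, and 0.0709 with the replicate number as a block). The differences at replicates 1, 2 and 3 were 0.98, 1.89 and 1.97.

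Ifit1, whose product binds viral RNA that lacks the cap marks of host RNA, showed a like layout. Its naive arrays stood at 5.85, 6.31 and 6.01, around the background level, and its ionomycin arrays at 6.68, 8.17 and 7.92. The groups did not overlap, and ionomycin replicate 1 was again far below the other two. The mean difference was 2.90-fold in array signal (log2 1.53 ± 0.39 SE, limma adjusted p = 0.193, and 0.0833 with the block). As naive arrays 1 and 3 lay below background, this gives no exact fold of the transcript. Without ionomycin replicate 1, Ifit1 passed (log2 1.99, limma adjusted p = 0.0394), in a fit that called 0.116% of all genes higher and 0.00% lower.

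Both genes passed when the replicate 1 arrays of both groups were left out, a fit on 2 arrays per group in which limma called 1.41% of all genes higher and 1.43% lower. Rsad2 then differed by 1.93 (limma adjusted p = 0.0323) and Ifit1 by 1.89 (0.00525). They also passed with a block that separates replicate 1 from replicates 2 and 3 (limma adjusted p = 0.0392 and 0.0274), where 2.25% of genes were called higher and 2.47% lower. With array weights, which set naive replicate 1 to 0.246 and ionomycin replicate 2 to 3.44, limma called 10 members higher and 1, Ifitm2, lower, against 7.44% and 5.49% of all genes.

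The other 2 members of the Ifit family had smaller differences, and the gap between the genes was not tested. Ifit2, from 5.71 ± 0.25 (SD, n = 3) to 5.79 ± 0.19, and Ifit3, from 5.02 ± 0.20 to 5.16 ± 0.09, were not above background. Ifit2 differed by 0.08 (limma adjusted p = 0.810), and the sign was negative after quantile normalization (-0.01) and centring (-0.02). Ifit3 differed by 0.14 (limma adjusted p = 0.538). No row names Ifit3b, a near-identical copy beside Ifit3, so the Ifit3 row cannot be told apart from it. In the RefSeq annotation Ifit2 and Ifit3 are neighbours and 3 protein-coding genes lie between Ifit3 and Ifit1.

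Cmpk2, a mitochondrial nucleotide kinase gene directly next to Rsad2, had naive values of 7.20, 7.18 and 6.92 and ionomycin values of 7.31, 7.76 and 7.40. Its groups did not overlap, though the gap between them was narrow (log2 0.39 ± 0.14 SE, limma adjusted p = 0.283). The Mx genes encode dynamin-like GTPases that block viruses, and both are annotated as transcribed pseudogenes in the RefSeq assembly of this strain. Mx2 differed by 0.38 without overlap (limma adjusted p = 0.277) and Mx1 by 0.19 with overlap (0.393), and neither was above background.

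The Ifitm genes, which encode membrane proteins that hinder virus entry, lie side by side. Their differences had both signs, and none passed. Ifitm3 had naive values of 10.31, 9.99 and 9.90 and ionomycin values of 10.94, 10.30 and 10.24. The lowest 2 ionomycin arrays lay just below the highest naive one, and within each replicate number ionomycin was higher (0.63, 0.31 and 0.34). Ifitm3 did not pass by limma (log2 0.43 ± 0.21 SE, adjusted p = 0.358, and 0.104 with the block). It passed with the block that separates replicate 1 (limma adjusted p = 0.0432), but not without both replicate 1 arrays (0.0761).

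Ifitm2 averaged 12.25 ± 0.08 in the naive group and 12.07 ± 0.09 after ionomycin (difference -0.17 ± 0.07 SE, limma adjusted p = 0.329), and Ifitm1 differed by -0.19 (0.498). The differences between the Ifitm genes were not tested. Bst2, which encodes tetherin, a protein that holds budding virus at the cell surface, was at 11.66 ± 0.22 and 11.72 ± 0.23 (0.06, limma adjusted p = 0.849, and -0.03 after centring). Samd9l, a restriction factor of poxviruses, differed by -0.13 (limma adjusted p = 0.655).

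Of the 7 members grouped here as sensors of viral nucleic acid 0 passed by limma. Before adjustment 3 were higher (42.9%, against 10.2% of all genes) and 0 lower (against 5.44%). These 3 were Ifih1 and the oligoadenylate synthetase-like genes Oasl1 and Oasl2, the last not above background. Ifih1 encodes MDA5, a cytosolic sensor of long double-stranded RNA. It had naive values of 7.35, 7.12 and 6.84 and ionomycin values of 7.63, 8.31 and 8.25. Every ionomycin array was above every naive array, with replicate 1 close to the naive range. The mean difference was 1.95-fold (log2 0.96 ± 0.22 SE, limma adjusted p = 0.160, and 0.129 with the block), made of 0.28, 1.19 and 1.41 at the 3 replicate numbers. Without both replicate 1 arrays Ifih1 passed (log2 1.30, limma adjusted p = 0.00775), but not with the block that separates replicate 1 (0.0607).

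Oasl1, an oligoadenylate synthetase-like gene whose product holds back the translation of Irf7, had naive values of 7.23, 7.56 and 7.39 and ionomycin values of 7.68, 8.71 and 8.80. The groups did not overlap, and replicate 1 was again the lowest ionomycin array. Oasl1 was 2.01-fold higher without passing (log2 1.01 ± 0.30 SE, limma adjusted p = 0.236, and 0.104 with the block). It passed without ionomycin replicate 1 (log2 1.36, limma adjusted p = 0.0419), without both replicate 1 arrays (0.00416) and with the block that separates replicate 1 (0.0373). Its neighbour Oasl2 differed by 0.25 without overlap (limma adjusted p = 0.288), and was not above background.

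Ddx58, the RNA sensor RIG-I, averaged 9.01 ± 0.15 in the naive group and 9.04 ± 0.28 after ionomycin (difference 0.03, limma adjusted p = 0.926, and -0.06 after centring). Dhx58, a regulator of both RNA helicases, differed by 0.19 (limma adjusted p = 0.520), and Zbp1, a sensor of Z-form nucleic acid, by 0.13 (0.340). Eif2ak2 encodes PKR, the kinase that stops translation when it meets viral RNA. It had naive values of 9.58, 9.05 and 8.84 and ionomycin values of 8.87, 8.91 and 8.60, which overlapped (log2 -0.36 ± 0.20 SE, limma adjusted p = 0.388). The highest value was that of naive replicate 1, and without both replicate 1 arrays the difference of Eif2ak2 was -0.19 (limma adjusted p = 0.412).

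**Figure D3:**
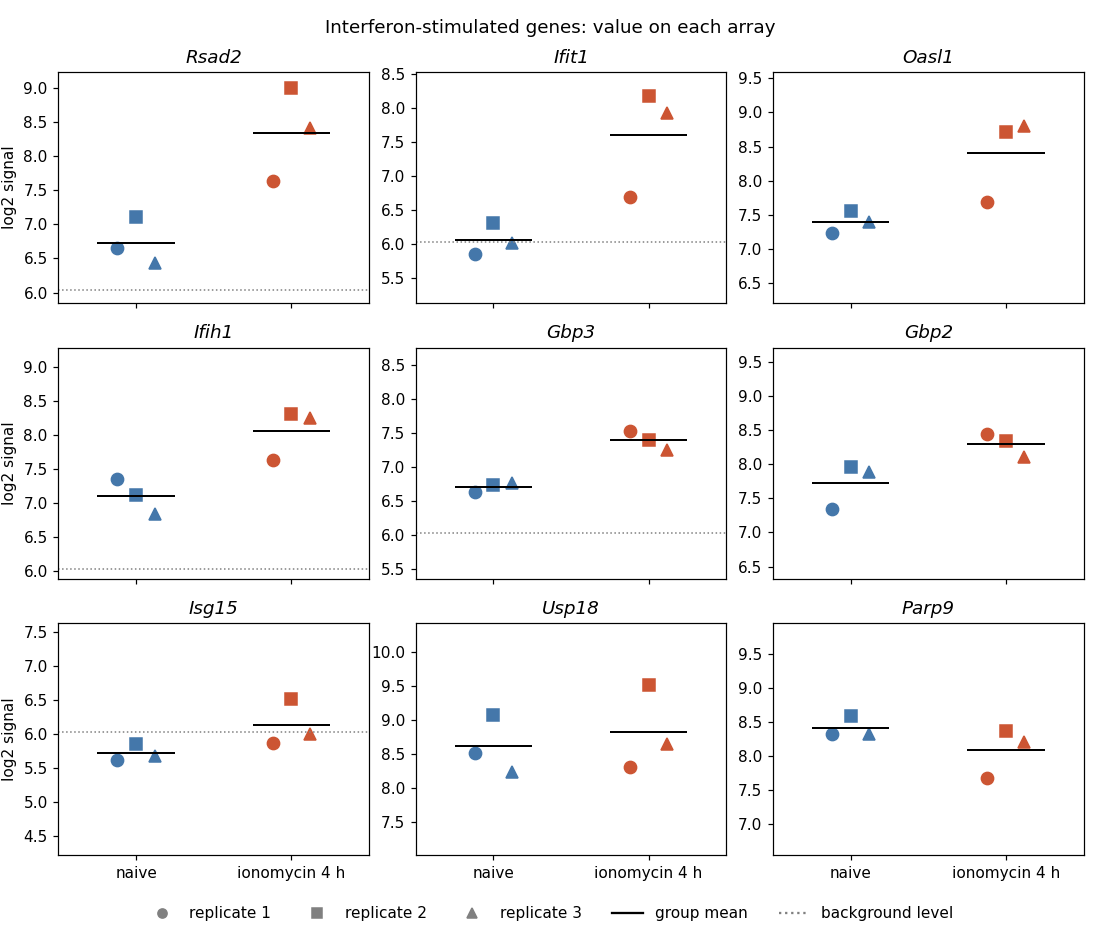
Log2 signal of 9 members on each of the 6 arrays, with a symbol for each replicate number, black lines for group means and a dotted line for background where it falls in the panel; each panel spans the same number of log2 units. Replicate 1 is the lowest ionomycin array for Rsad2, Ifit1, Oasl1, Ifih1, Isg15, Usp18 and Parp9 and the highest for Gbp3 and Gbp2.

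The interferon-inducible GTPases attack the vacuoles of intracellular microbes, and of the 6 measured here, 1 rose, 0 fell and 5 did not pass. Gbp3 was at 6.64, 6.74 and 6.76 on the naive arrays and at 7.53, 7.40 and 7.26 on the ionomycin arrays. The groups did not overlap, the naive arrays lay close together, and unlike Rsad2 the highest ionomycin value was that of replicate 1. Gbp3 rose 1.60-fold (log2 0.68 ± 0.09 SE, limma adjusted p = 0.0485), by 0.89, 0.66 and 0.49 at replicates 1, 2 and 3. With the replicate number as a block it did not pass (limma adjusted p = 0.0704), nor after quantile normalization (0.0702), after centring (0.0571) or with all array rows as the tested set (0.0592). It passed in none of the 6 fits that leave out 1 array, whichever array of either group was left out (limma adjusted p from 0.0690 to 0.273), and it passed without both replicate 1 arrays (0.0234).

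Gbp2, separated from Gbp3 by 1 protein-coding gene, had naive values of 7.34, 7.96 and 7.88 and ionomycin values of 8.45, 8.34 and 8.12. The groups did not overlap, but the gap was widest at replicate 1 (1.11, against 0.38 and 0.23). Gbp2 did not pass (log2 0.57 ± 0.18 SE, limma adjusted p = 0.249), and without both replicate 1 arrays the difference was 0.31 (0.146). Gbp7, which lies directly next to Gbp3 and carries the response element core shown above, was at 10.08 ± 0.17 and 9.82 ± 0.26, a difference of -0.25 (limma adjusted p = 0.426). Whether Gbp3 and Gbp7 differ from each other in response was not tested.

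The immunity-related GTPase genes showed no shared direction. Irgm1 differed by -0.09 (limma adjusted p = 0.899), Igtp by -0.07 (0.881, and 0.13 as its difference without both replicate 1 arrays) and Iigp1, not above background, by 0.11 (0.582). On the arrays Irgm1 read 8.02, 8.98 and 8.75 in naive cells and 8.01, 8.97 and 8.49 after ionomycin. It was thus about a log2 unit lower at replicate 1 than at replicate 2 in both groups.

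A further 7 members act through ubiquitin, ISG15 or ADP-ribose, and 0 of them passed by limma, nor was any called before adjustment. Isg15, the ubiquitin-like modifier itself, had naive values of 5.62, 5.85 and 5.67 and ionomycin values of 5.87, 6.52 and 6.00. The groups did not overlap, but only 1 array, ionomycin replicate 2, was above the background level (log2 0.41 ± 0.17 SE, limma adjusted p = 0.325). Usp18, the protease that removes ISG15 and damps the type I interferon receptor, gave 8.51, 9.07 and 8.24 on naive arrays and 8.30, 9.51 and 8.65 after ionomycin. Its groups overlapped widely, and replicate 2 was the highest array in both (log2 0.21 ± 0.35 SE, limma adjusted p = 0.769).

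Trim25, a ubiquitin ligase that activates RIG-I, was higher in ionomycin at each replicate number, by 0.69, 0.44 and 0.22, but its naive replicate 1 lay at 8.96 against 10.00 and 9.98 for the other naive arrays. The groups overlapped, and the gene did not pass (log2 0.45 ± 0.34 SE, limma adjusted p = 0.513, and 0.123 with the block). Parp9 and Dtx3l encode partners of 1 enzyme complex and neighbour each other and Parp14 in the annotation. Their differences were -0.32 for Parp9 (limma adjusted p = 0.414), -0.18 for Dtx3l (0.585) and -0.17 for Parp14 (0.669). All 3 were most negative at replicate 1, with -0.64, -0.45 and -0.60 there. Without both replicate 1 arrays the differences were -0.16 for Parp9, -0.04 for Dtx3l and 0.04 for Parp14. Trim30a, a feedback regulator, differed by 0.06 (limma adjusted p = 0.857, and -0.03 after centring).

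The last 3 measured members belong to none of these classes. Rtp4, a chaperone of receptors, had naive values of 5.83, 5.76 and 5.47 and ionomycin values of 5.82, 6.61 and 6.22. Replicate 1 did not differ (-0.01) while replicates 2 and 3 differed by 0.85 and 0.75, and Rtp4 did not pass (limma adjusted p = 0.305). Xaf1, a pro-apoptotic gene, differed by 0.16 (limma adjusted p = 0.763) and Ifi35 by 0.07 (0.661, and -0.03 after centring).

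The genes around the members in the pathway were followed in lists of interferons, receptors and signal, sensors upstream, feedback and further interferon-stimulated genes. Of the 115 measured genes in them that are not members, 3 rose, 0 fell and 112 did not pass by limma. The 3 are 2.61% of the list, against 0.289% of all genes called higher and 0.0598% called lower. Among 18 measured interferon genes 0 passed by limma. Before adjustment 3 were higher (16.7%, against 10.2% of all genes) and 0 lower (against 5.44%). Ifnb1, the first interferon made by many cells, gave 4.89, 4.84 and 4.79 on naive arrays and 4.94, 4.95 and 4.93 after ionomycin. All 6 values lay below background, although the groups did not overlap (log2 0.10, limma adjusted p = 0.382). The interferon lambda genes Ifnl3 and Ifnl2 differed by 0.20 and 0.16 (limma adjusted p = 0.362 and 0.361).

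Of the 11 measured genes of the receptors and their signal, 1 rose, 0 fell and 10 did not pass. Jak2, the kinase of the interferon gamma receptor and of the receptors for interleukin 3, had naive values of 9.96, 10.10 and 10.21 and ionomycin values of 10.69, 10.79 and 10.84. The groups lay well apart, and Jak2 rose 1.61-fold (log2 0.69 ± 0.09 SE, limma adjusted p = 0.0485, and 0.0352 with the block), though it passed in none of the 6 fits that leave out 1 array (0.0517 to 0.273). It did not pass after quantile normalization either (limma adjusted p = 0.137). Jak1 differed by 0.06 (limma adjusted p = 0.617, and -0.04 after centring).

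The type I receptor genes Ifnar1 and Ifnar2 differed by -0.13 and -0.16 (limma adjusted p = 0.687 and 0.470). Ifngr1, the ligand-binding chain for interferon gamma, had naive values of 8.92, 9.17 and 9.28 and ionomycin values of 8.21, 8.75 and 8.70. All ionomycin values were below all naive values, without passing (log2 -0.57 ± 0.17 SE, limma adjusted p = 0.232, and 0.0699 with the block). Ifngr1 passed as lower without both replicate 1 arrays (limma adjusted p = 0.0292) and with the block that separates replicate 1 (0.0166). Its partner Ifngr2 differed by 0.11 (limma adjusted p = 0.804, and -0.06 without both replicate 1 arrays).

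The transcription factors of the response did not pass. Irf9 differed by 0.11, Stat2 by -0.18, Irf7 by 0.20 and Irf1 by -0.30 (limma adjusted p = 0.709, 0.672, 0.589 and 0.329). Of 14 measured genes of sensing upstream of interferon 0 passed by limma. Before adjustment 1 was higher and 3 lower, against 10.2% and 5.44% of all genes. Tbk1, the kinase that activates IRF3, averaged 9.91 ± 0.15 in the naive group and 9.52 ± 0.05 after ionomycin (difference -0.39 ± 0.09 SE, limma adjusted p = 0.160). The adaptor gene Myd88 differed by -0.37 (limma adjusted p = 0.275). Of the 10 feedback genes, Usp18 and Isg15 among them, 0 passed by limma, and before adjustment 1 was higher and 2 lower. Cish, a STAT5 target that restrains cytokine receptors, averaged 10.74 ± 0.34 in the naive group and 11.41 ± 0.09 after ionomycin (difference 0.66 ± 0.17 SE, limma adjusted p = 0.193). Its naive replicate 1, at 10.36, lay below the other naive arrays at 10.96 and 10.92, and Cish passed without both replicate 1 arrays (log2 0.52, limma adjusted p = 0.0221) and with the block that separates replicate 1 (0.0263). The phosphatase gene Ptpn6 differed by -0.29 (limma adjusted p = 0.276), and passed as lower with that block (0.0411) but not without both replicate 1 arrays (0.0795).

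**Figure D4:**
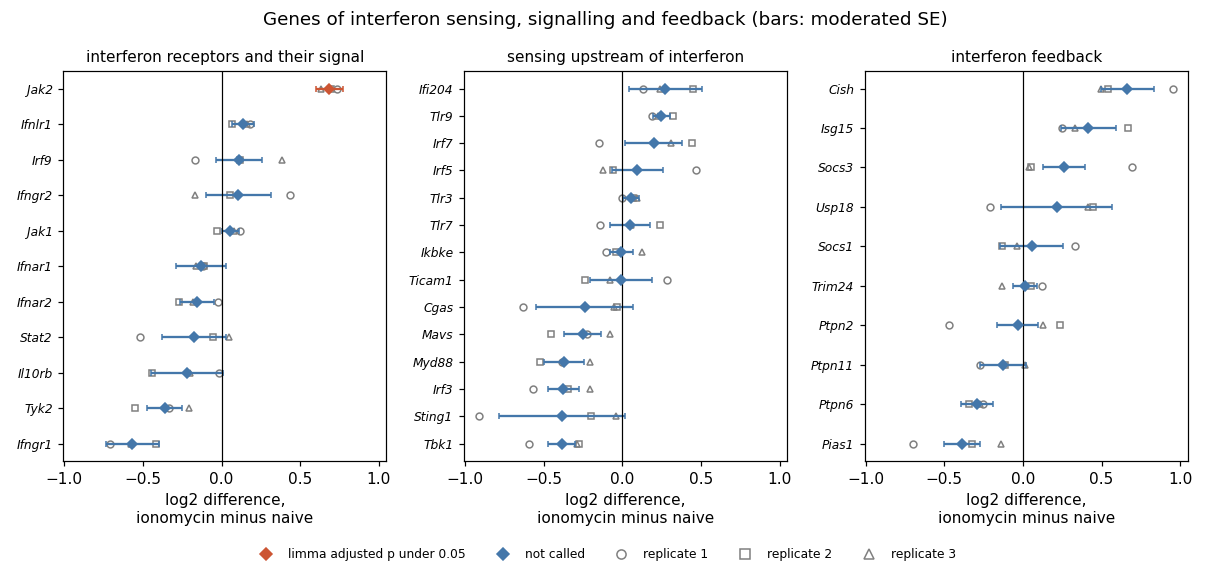
Log2 difference (ionomycin minus naive) of the measured genes of the receptors and signal, of sensing upstream of interferon and of feedback, with moderated standard errors as bars and open symbols for each replicate number. Jak2 at 0.69 is the gene called by limma in these 3 panels, and Ifngr1 at -0.57 lies lowest.

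Of the 68 measured further interferon-stimulated genes, 2 rose, 0 fell and 66 did not pass. Before adjustment 10 were higher (14.7%, against 10.2% of all genes) and 2 lower (against 5.44%). The list median was 0.08, near that of all genes (0.05). Tnfsf10, the death ligand TRAIL, had naive values of 6.99, 7.50 and 6.95 and ionomycin values of 8.58, 8.82 and 8.70. The groups lay more than a log2 unit apart, and replicate 1 did not stand out (log2 1.55 ± 0.16 SE, limma adjusted p = 0.0285). Cxcl10, a chemokine induced by interferon gamma and by other signals, gave 5.54, 5.82 and 5.51 on naive arrays and 6.42, 6.55 and 6.43 after ionomycin. Its naive values lay below background and its ionomycin values above it (log2 0.84 ± 0.10 SE, limma adjusted p = 0.0395). At such low signal the naive level is poorly measured, so the log2 difference is that of the array signals and gives no exact fold of the transcript. Cxcl10 passed in none of the 6 fits without 1 array (limma adjusted p from 0.0624 to 0.241) and not after quantile normalization (0.0581), and Tnfsf10 did not pass without naive replicate 3 (0.103) or without ionomycin replicate 1 (0.0688), 2 (0.182) or 3 (0.162). Without both replicate 1 arrays Cxcl10 (limma adjusted p = 0.0305), Tnfsf10 (0.0199) and Jak2 (0.0161) passed.

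Macrophages and dendritic cells express many of these genes, so their markers were read on the same arrays. All 9 measured macrophage or monocyte markers were above background, with an array mean of the list between 7.50 and 8.01 in naive and between 7.63 and 8.16 in ionomycin cells. Of the 9 dendritic cell markers 3 were above background (Siglech, Pacsin1 and Cox6a2) and 6 were not (Flt3, Zbtb46, Xcr1, Clec9a, Cd209a and Ccr9), and the array means ran from 5.82 to 5.96 in naive and from 5.97 to 6.11 in ionomycin cells. No marker of either list passed by limma, although before adjustment 2 macrophage and 4 dendritic cell markers were higher and 0 lower. These are 22.2% and 44.4% of the lists, against 10.2% of all genes higher and 5.44% lower. Of the 4 dendritic cell markers Flt3, Zbtb46 and Xcr1 were not above background, and Pacsin1 was. The median differences of the lists were 0.17 and 0.15, against 0.05 for all genes. After centring they were 0.07 and 0.05, against -0.04. Marker lists of basophils, neutrophils, eosinophils, T or NK cells, B cells and stromal cells held no called gene by limma either. Before adjustment each had at most 2 higher and 1 lower. The basophil markers Mcpt8 and Prss34 stood at 10.36 and 10.35 on naive replicate 1 and at 10.60 and 10.70 on ionomycin replicate 1. On the other arrays they lay between 9.03 and 9.20 and between 8.61 and 8.94. Clec12a leaned the same way, and Cd200r3 and Itga2 did not. Lyz2 was lowest at replicate 3 in both groups (9.54 and 9.98). So were Csf1r, Adgre1, C1qa, C1qb, Mrc1 and Marco, but not C1qc and Cd14. Without both replicate 1 arrays, the fit in which Rsad2, Ifit1, Oasl1 and Ifih1 passed, the T or NK cell markers Eomes (log2 1.10, limma adjusted p = 0.00516) and Ncr1 (1.09, 0.0191) and the eosinophil marker Siglecf (0.46, 0.0296) were called higher as well. On all 6 arrays Ncr1 differed by 0.90 and Siglecf by 0.56, both without overlap, and Eomes by 0.66 with overlap (limma adjusted p = 0.0794, 0.0718 and 0.396). Eomes, Ncr1 and Siglecf were picked out after their values were seen. Without both replicate 1 arrays, other markers of their lists were not called by limma. Cd3e, Cd3d, Cd3g and Cd8a differed there by 0.11, -0.01, 0.08 and 0.07, and Epx, Prg2, Prg3 and Ear6 by 0.14, 0.26, 0.05 and 0.04. The T or NK cell list of 8 also holds Klrb1c and Nkg7, whose values are not given here. On all 6 arrays 2 of these 8 were higher before adjustment (25%, against 10.2% of all genes). Without overlap 3 were higher (37.5%, against 18.9%). In bulk RNA, more cells of a type and more RNA per cell cannot be told apart, and the part of such cells in the members' values was not tested.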

How the data were processed

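The authors' deposited values are log2 signals of 6 whole-transcript arrays (65770 rows, no missing values), made with oligo, per the submitters' processing notes. Not given in the sources used here are its version, the build and how probes were summarized and normalized. The log2 scale was read from the values, 3.01 to 14.6. Array medians were 5.88, 5.95 and 5.99 (naive) and 5.96, 6.03 and 6.03 (ionomycin), and whether arrays were centred or scaled stays unknown. Of the rows, 30439 name 1 gene, 2146 several and 33185 none. Symbols of 827 rows were updated by Entrez ID with RefSeq GRCm38.p6, and for genes with several rows (252) the row of highest mean was kept, which gave 30102 genes. Background was the 95th percentile of 1768 chemosensory receptor genes.

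The 2 groups of 3 arrays were fitted with limma 3.58.1 (R 4.3.3; lmFit, eBayes, no block, two-sided, Benjamini-Hochberg over 30102 genes, threshold 0.05), after the fit was tested on simulated data. Groups and replicate numbers are from the titles. Deviations of same-numbered arrays from their group means correlated at 0.711, 0.476 and 0.469 across genes. As all were above 0.1, the blocked fit stands beside results it changes. Numbers 2 and 3 correlated with each other as strongly (0.481 and 0.524). The values thus set replicate 1 apart and do not show that numbers 2 and 3 pair arrays. The members and lists were chosen with earlier results of these data known. Named genes were members past the threshold in either fit, in each role group the 2 largest absolute differences above background and the brightest member, other list genes past the threshold or the brightest until 2 were named, and 12 pathway genes in every case, of which 1 is not reported here; all other members are given too.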

Additional observations from a re-analysis of the deposited data

How the results depend on the processing

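Members called higher numbered 1, against 0 with the replicate block, after quantile normalization, after centring and with all rows tested, 5 with a block of 2 levels that separates replicate 1, 5 without both replicate 1 arrays, 10 with array weights (and 1 lower) and 0 to 2 without 1 array. Their median of 0.14 ranged from 0.045 (centred) to 0.27 (without both replicate 1 arrays), and from 0.086 to 0.21 without 1 array. Pathway genes beside the members called higher numbered 3, against 1 after quantile normalization, 9 with the block of 2 levels, 14 with array weights, 5 without both replicate 1 arrays and 0 to 1 without 1 array. None was called lower, against 1 after centring, 4 with the block of 2 levels, 13 with array weights, 4 without both replicate 1 arrays and 0 to 1 without 1 array; before adjustment (limma p under 0.05) 16 were higher and 9 lower. Over all genes 87 were higher and 18 lower. These counts were 119 and 33 with the replicate block, 677 and 744 with the block of 2 levels, 86 and 110 after centring, 78 and 9 with trend and robust settings, 2240 and 1654 with array weights, 75 and 9 with all rows tested, 423 and 429 without both replicate 1 arrays, and 1 to 95 and 0 to 55 without 1 array. The replicate block ended the call of Gbp3 and changed no other call among the named genes. The cause of these shifts was not tested.

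Differences with a changed sign were small, and their genes were called in none of these fits. After centring they were -0.032 (Bst2), -0.064 (Ddx58), -0.026 (Ifi35), -0.018 (Ifit2), -0.039 (Jak1) and -0.033 (Trim30a), and after quantile normalization -0.0060 (Ifit2) and -0.0025 (Jak1). With array weights they were 0.073 (Igtp) and 0.032 (Parp14), and without both replicate 1 arrays 0.13 (Igtp), 0.040 (Parp14) and -0.057 (Ifngr2). Without 1 array they ranged from -0.069 to 0.18 (Bst2), -0.089 to 0.18 (Ddx58), -0.033 to 0.22 (Ifit2), -0.12 to 0.23 (Ifngr2), -0.28 to 0.12 (Igtp), -0.0048 to 0.22 (Irf9), -0.37 to 0.15 (Irgm1), -0.35 to 0.011 (Stat2), -0.089 to 0.20 (Trim30a), -0.13 to 0.47 (Usp18) and -0.12 to 0.40 (Xaf1). Signals at or below 6.03 bound what the arrays can show for the 8 members not above background and for Cxcl10 in the naive group. The same holds for Ifit1 on naive arrays 1 and 3.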
